A study of Mus musculus with 3 samples.

Results

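The 10 genes described here control whether a cell enters apoptosis, and they were taken by name: 5 that favor survival (Bcl2, Bcl2l1, Mcl1, Cflar and Xiap) and 5 that favor death (Bax, Bak1, Bcl2l11, Bbc3 and Bid). All 15 probes whose accession mapped to these symbols were read, and all 10 genes were among the 21743 genes and transcripts tested. Primary cultures came from MMTV-PyMT mammary tumors of 3 mice, called tumors 1, 2 and 3, in which the MMTV promoter drives the polyoma middle T transgene. From each tumor, a culture given RANK ligand (RL) for 24 h and an untreated control culture were hybridized together on 1 Agilent array, so each array gave a log2 ratio of RL over control within a tumor. Both cultures grew in DMEM F12 with 5% FBS, cholera toxin, insulin and EGF, and RL was added 24 h after plating. For acinar cultures, the methods describe tumor cells of RANK+/+ or RANK−/− transplants plated on matrigel. The labels give the RL dose as 1000 µg/mL, whereas the methods give a dose 1000 times lower. RL cDNA carried Cy3 in tumors 1 and 3 and Cy5 in tumor 2, and the files analysed here hold 1 hybridization of each tumor, although the methods mention swapped dyes for every sample. The 3 arrays shared 1 slide and 1 scan, so no batch could be set against another.

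In the intrinsic pathway of apoptosis, Bax and Bak1 permeabilize the outer mitochondrial membrane, and Bcl2, Bcl2l1 and Mcl1 hold them in check. BH3-only proteins, such as those encoded by Bcl2l11, Bbc3 and Bid, relieve this restraint or activate Bax and Bak1 directly. Cflar blocks caspase-8 at death receptors, Xiap inhibits effector caspases, and RANK signals through NF-κB, whose known targets include several survival genes.

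None of the 10 genes passed the limma test at an adjusted p of 0.05, a threshold that 6 of the 21743 genes and transcripts passed (0.0276%). At an unadjusted p under 0.05, 1 of the 10 passed, Bid, against 6.97% of all genes tested. By rank product, at a proportion of false positives (pfp) under 0.05, 0 of the 10 passed, against 0.414% of all genes. With a dye term in the limma fit, 0 of the 10 passed, against 1.19%. The log2 ratio was above 0 in all 3 tumors for 1 gene, Bbc3, against 14.1% of all genes with 3 values, and below 0 in all 3 for 1 gene, Bid, against 13.6%. In 5 of the 10 genes, tumor 2 had the opposite sign to both tumors 1 and 3, a pattern found in 34.8% of all genes. Across all genes, Pearson's r between the log2 ratios was 0.453 for tumors 1 and 3, −0.112 for tumors 1 and 2 and −0.110 for tumors 2 and 3. Tumor 2 was the array with RL in Cy5, so a difference between this tumor and the others and a difference between the dyes cannot be told apart.

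**Figure D1:**
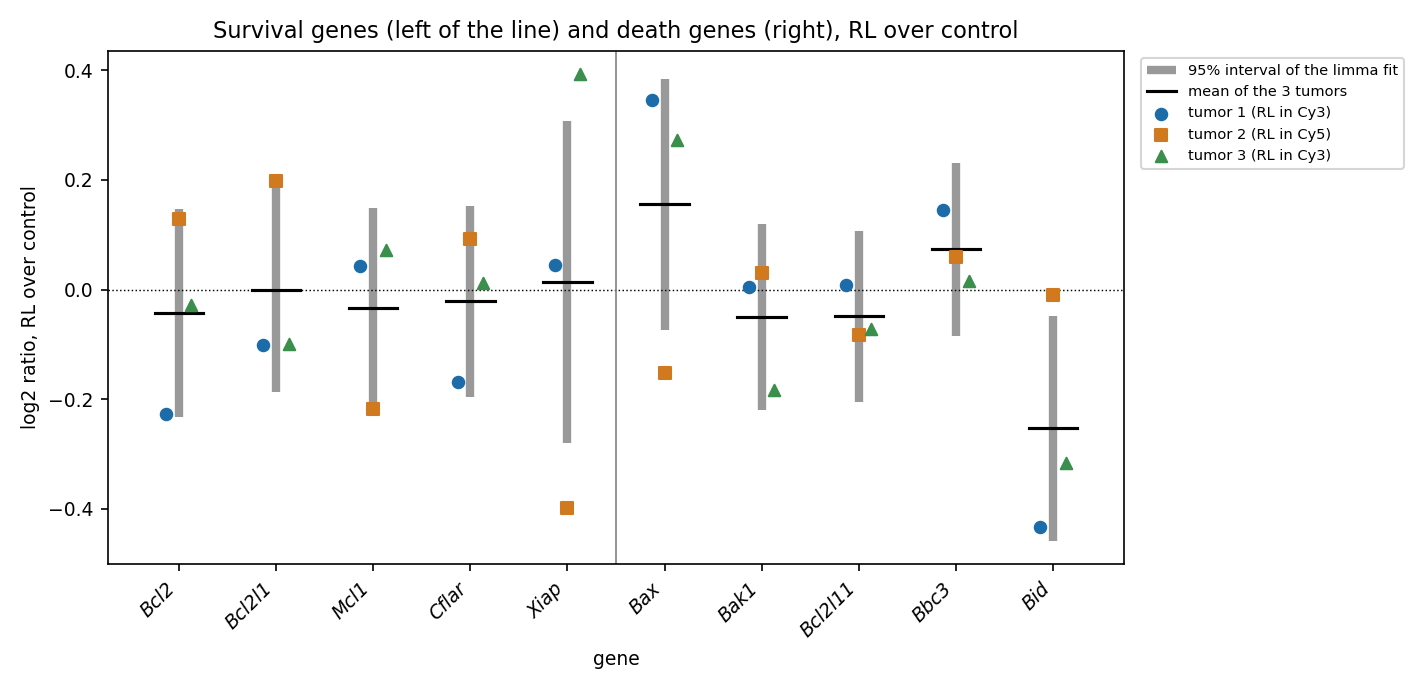
Log2 ratio of RL over control (vertical axis) for the 5 survival genes and the 5 death genes, with a point for each tumor, a black line at the mean and a grey bar for the 95% interval of the limma fit. The interval lies below 0 for Bid, from −0.46 to −0.05, and holds 0 for the other 9 genes.

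Ratios of 8 genes of the RANK and NF-κB pathways were read beside the members. This list was chosen with earlier results in view, so its direction is not independent evidence of a response to RL. Nfkbia, which encodes an inhibitor of NF-κB and is itself a target of it, had log2 ratios of 1.48, 0.48 and 0.37 in tumors 1, 2 and 3. Traf1, an adaptor of TNF receptors, had 1.15, 0.31 and 0.65. Nfkbie, Nfkb2, Relb, Icam1 and Tnfaip3 were also above 0 in all 3 tumors, with means of 0.75, 0.62, 0.55, 0.49 and 0.35. The mean of Icam1 was 0.97 with the processed signals of the scanner software, and that of Tnfaip3 was 0.18 with median centering. Tnfrsf11a, which encodes RANK, had 0.10, −0.08 and 0.13. None of these 8 genes passed the limma threshold, with adjusted p from 0.230 to 0.919. Without tumor 2 all but Tnfrsf11a passed it, in a fit where RL and the dye cannot be told apart. With trend and robust moderation Icam1 passed, with an adjusted p of 0.0266 by limma. With a dye term 6 of the 8 passed, and by rank product 5 of the 8 did. In 7 of the 8 genes tumor 1 had the highest ratio of the 3 tumors, the exception being Tnfrsf11a. Without tumor 1, the means of Nfkbia, Nfkbie, Nfkb2, Relb, Traf1 and Tnfaip3 were 0.42, 0.47, 0.31, 0.25, 0.48 and 0.20, and that of Icam1 was 0.37.

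**Figure D2:**
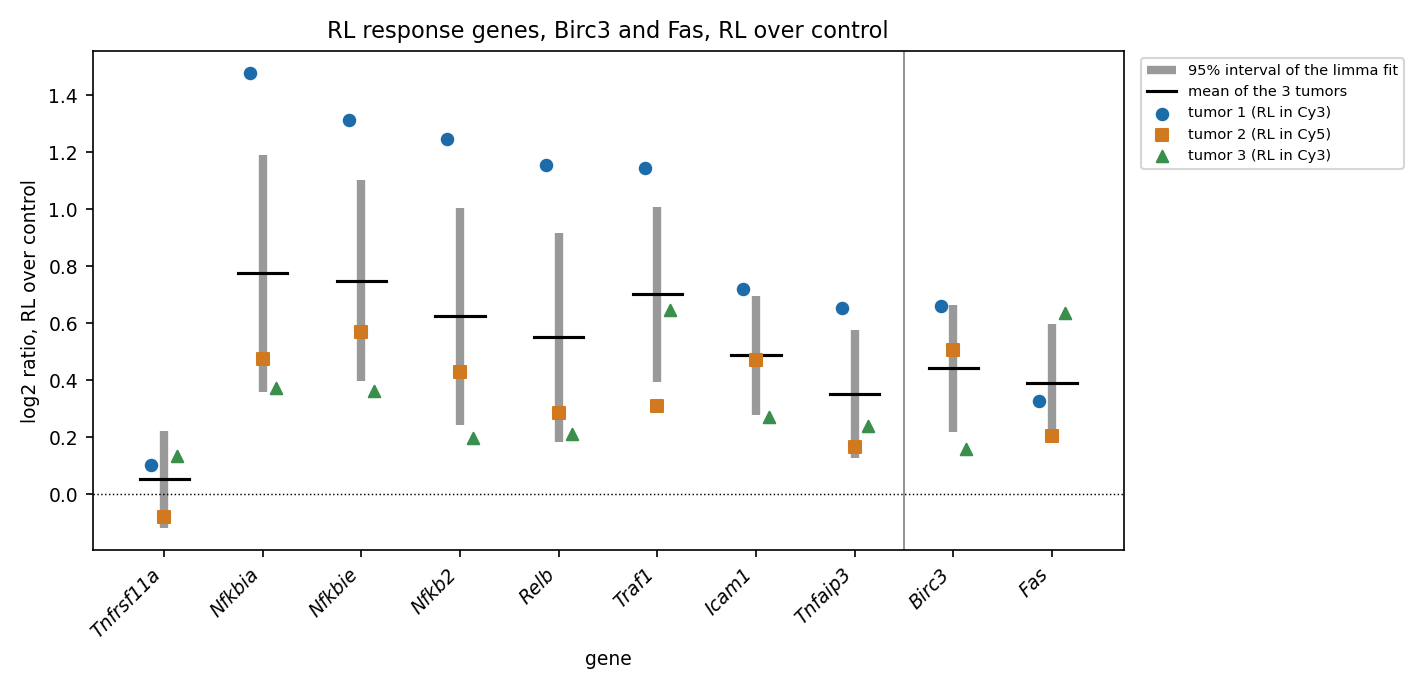
Log2 ratio of RL over control (vertical axis) in each tumor for 8 genes of the RANK and NF-κB pathways and for Birc3 and Fas, with the mean as a black line and the 95% interval of the limma fit as a grey bar. Apart from Tnfrsf11a, every point lies above 0.

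Among the survival genes, the 3 BCL2-type inhibitors had means of −0.04, −0.00078 and −0.03 for Bcl2, Bcl2l1 and Mcl1. With median centering in place of loess, which moved the median over all genes from −0.0017 to −0.11, they were −0.19, −0.18 and −0.20. Bcl2, the founding member of the family, had a normalized log2 intensity of 9.79, 9.67 and 9.57 in the control cultures of tumors 1, 2 and 3 and of 9.57, 9.80 and 9.55 in the RL cultures. Its log2 ratios were −0.23, 0.13 and −0.03. The mean was −0.04 (SD 0.18, n = 3 tumors), with a 95% interval of −0.23 to 0.15. Control and RL levels overlapped, and the sign differed between tumors.

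Bcl2l1, which encodes BCL-XL, had log2 ratios of −0.10, 0.20 and −0.10 for its brighter probe. Its mean was −0.00078 (SD 0.17, n = 3), and its 95% interval of −0.19 to 0.19 corresponded to a fold of 0.878 to 1.14. Tumors 1 and 3 were below 0 and tumor 2 above. The second Bcl2l1 probe, designed to another transcript, gave 0.18, −0.09 and 0.06, with the opposite sign to the first probe in every tumor. It was much dimmer, with a mean log2 intensity of 8.63 against 14.04 for the first.

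Mcl1, a short-lived inhibitor of Bak1, had log2 ratios of 0.04, −0.22 and 0.07 for its brighter probe and a mean of −0.03 (SD 0.16, n = 3). Its second probe, designed to the same transcript, gave 0.01, 0.03 and 0.12. Tumor 2 was below 0 by the first probe and above 0 by the second, so the sign of Mcl1 in this tumor depended on the probe.

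Cflar encodes cFLIP, the inhibitor of caspase-8, and was the member with the most probes, 3. The brightest probe gave −0.17, 0.09 and 0.01, with a mean of −0.02 (SD 0.13, n = 3). A probe designed to another transcript gave 0.21, 0.15 and 0.18, above 0 in all 3 tumors, with a mean of 0.18. The third probe, designed to the same transcript as the first, gave −0.06, −0.09 and −0.04, below 0 in all 3. Whether RL changed the balance of Cflar transcripts was not tested.

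Xiap, an inhibitor of effector caspases, varied most between tumors among the 10 genes. Its log2 ratios were 0.04, −0.40 and 0.39, and its control levels were 11.19, 11.74 and 11.08. The mean was 0.01, with an SD of 0.40 over the 3 tumors and a 95% interval of −0.28 to 0.31. This interval is from the limma fit, which draws variances toward that of all genes, and is narrower than the SD of Xiap gives. It was −0.12 with median centering and −0.09 with a dye term, and ran from −0.18 to 0.22 with tumors left out in turn. Tumors 2 and 3 lay on opposite sides of 0 by nearly the same amount.

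**Figure D3:**
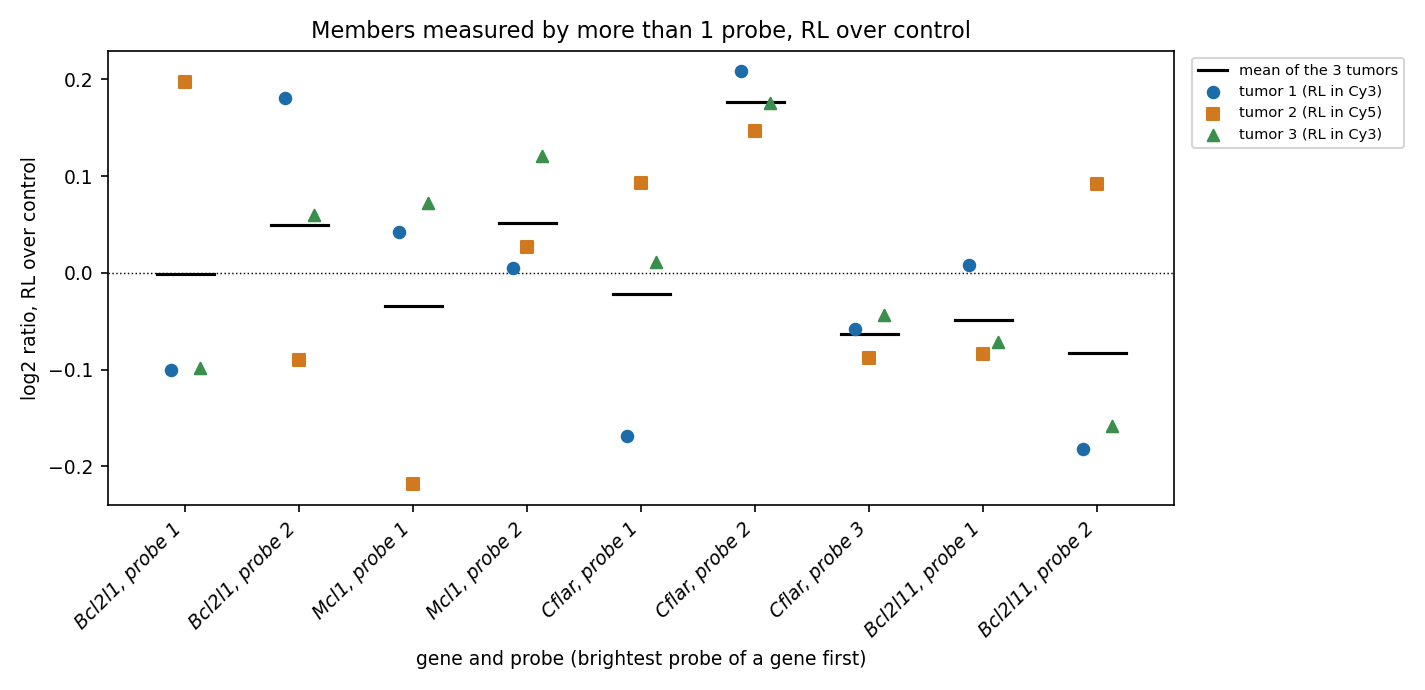
Log2 ratio of RL over control (vertical axis) in each tumor for the 4 members measured by more than 1 probe, with the brightest probe of a gene first and the mean as a black line. The Cflar probes have means of −0.02, 0.18 and −0.06.

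Among the death genes, Bid was the member with the lowest mean and Bax the member with the highest. Bid encodes a BH3-only protein that caspase-8 cleaves, which links death receptors to mitochondria. Its normalized log2 intensity was 10.93, 11.22 and 11.16 in the controls of tumors 1, 2 and 3 and 10.50, 11.21 and 10.84 with RL. The log2 ratios were −0.43, −0.01 and −0.32, below 0 in 3 of 3 tumors but close to 0 in tumor 2. The mean was −0.25 (SD 0.22, n = 3), a fold of 0.839, with an adjusted p of 0.611 by limma. With a dye term the estimate was −0.19, with an adjusted p of 0.318 by limma.

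Bax, an effector of membrane permeabilization, had control levels of 12.67, 12.88 and 12.58 and RL levels of 13.02, 12.73 and 12.85. Its log2 ratios were 0.35, −0.15 and 0.27, above 0 in 2 of 3 tumors. The mean was 0.16 (SD 0.27, n = 3), a fold of 1.11, with an adjusted p of 0.817 by limma, and it was 0.08 with a dye term. Without tumor 1 the means of Bax and Bid were 0.06 and −0.16, and without tumor 3 they were 0.10 and −0.22, with an adjusted p by limma of 1 for each. Without tumor 2, the array with RL in Cy5, the adjusted p by limma was 0.0235 for Bax and 0.00559 for Bid, with means of 0.31 and −0.37. That fit held only arrays with RL in Cy3 and called 533 genes higher and 879 lower, so in it RL and the dye cannot be told apart. With median centering in place of loess, the mean of Bax was −0.0058 and that of Bid −0.40.

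The other effector, Bak1, had log2 ratios of 0.0047, 0.03 and −0.18, with a mean of −0.05 (SD 0.12, n = 3). Bcl2l11, which encodes the BH3-only protein BIM, had 0.0080, −0.08 and −0.07, with a mean of −0.05 (SD 0.050, n = 3). Its second probe, designed to another transcript, gave −0.18, 0.09 and −0.16. Bbc3, which encodes PUMA and is a p53 target, had 0.15, 0.06 and 0.02, with a mean of 0.07 (SD 0.066, n = 3). With median centering Bbc3 was below 0, at −0.08, and Bak1 and Bcl2l11 were −0.24 and −0.14. Bak1 was above 0, at 0.02, without tumor 3. The 95% interval of Bbc3 corresponded to a fold of 0.943 to 1.17.

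**Figure D4:**
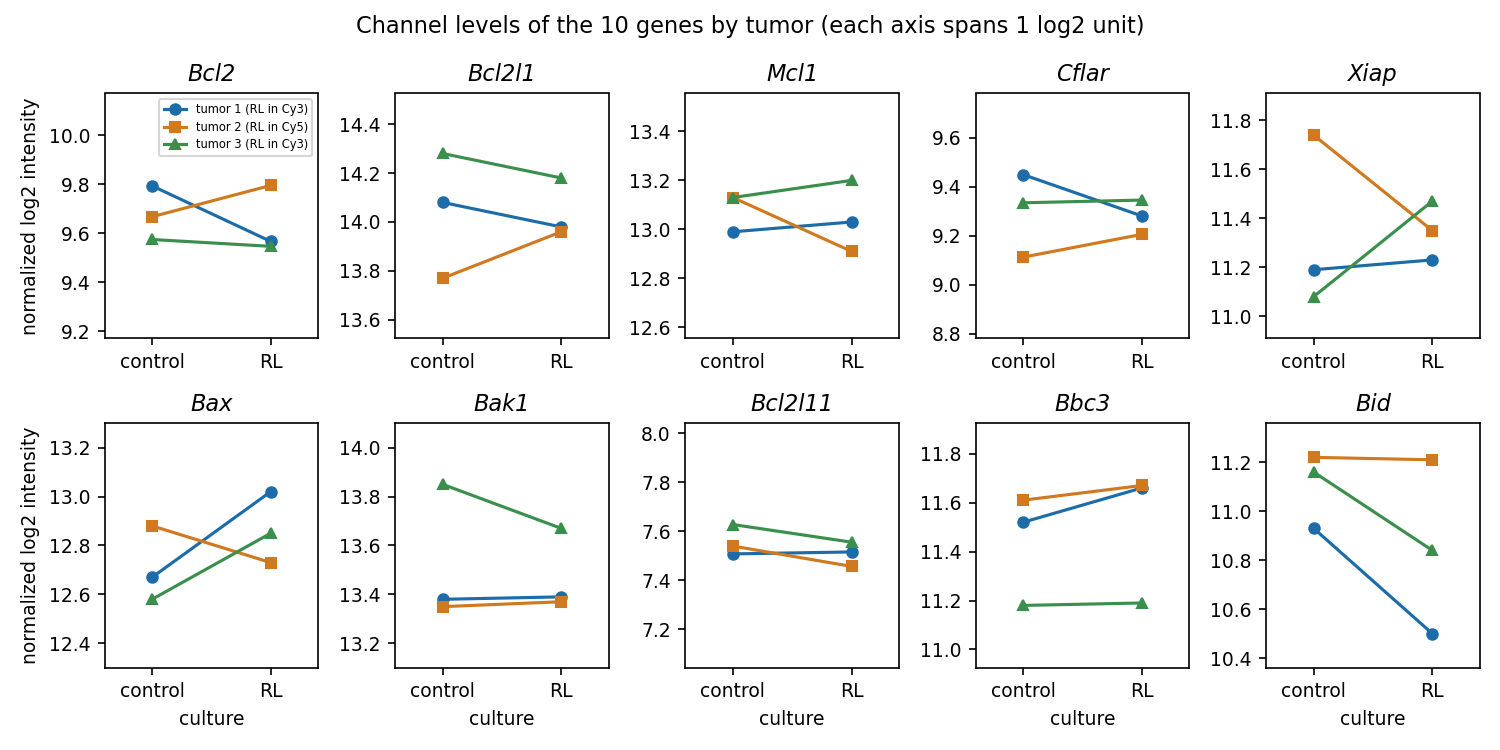
Normalized log2 intensity (vertical axis, 1 log2 unit in every panel) of the 10 genes in the control and RL cultures, with a line joining the cultures of a tumor. The lines of Bid run down in tumors 1 and 3 and are nearly level in tumor 2, and those of Bax run up in tumors 1 and 3 and down in tumor 2.

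The survival and death genes were then compared as groups, as a description without a test. The mean log2 ratio of the 5 survival genes was −0.08, −0.04 and 0.07 in tumors 1, 2 and 3. That of the 5 death genes was 0.01, −0.03 and −0.06. Survival minus death was −0.10, −0.0079 and 0.13, with a mean of 0.0075 (SD 0.11, n = 3), so the difference was smaller than the spread between tumors and differed in sign between them. Of the 25 pairs of a survival and a death gene, the survival gene had the higher ratio in 9, 15 and 17 pairs in tumors 1, 2 and 3.

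Bid and Bax lay at opposite ends of the death genes and offset each other in their mean. Without Bid, the mean of the death genes was 0.03 and survival minus death was −0.05. Without Bax, they were −0.07 and 0.05. Against Bax, the 5 survival genes had mean differences of −0.20 to −0.14, although in tumor 2 Bcl2, Bcl2l1 and Cflar were above Bax by 0.28, 0.35 and 0.25, and in tumor 3 Xiap was above it by 0.12. Against Bid, they had mean differences of 0.21 to 0.27, although in tumor 2 the differences of Mcl1 and Xiap were −0.21 and −0.39. The median over the 10 members was −0.03, beside −0.0017 over all genes tested.

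**Figure D5:**
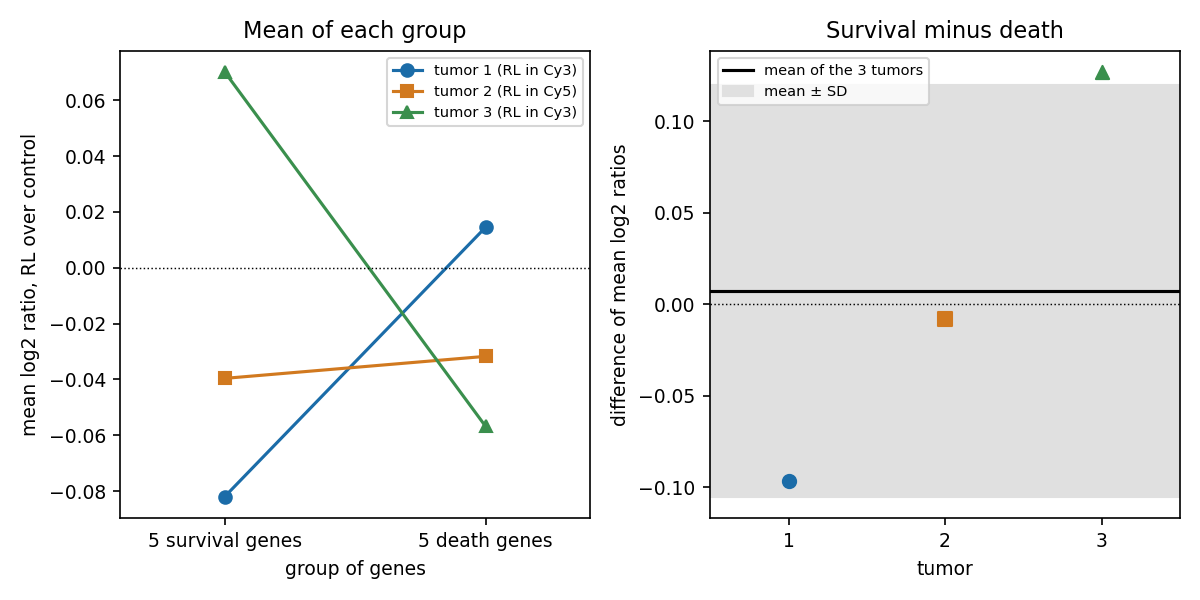
Left, mean log2 ratio of RL over control of the 5 survival and 5 death genes in each tumor; right, survival minus death in each tumor with the mean as a line and mean ± SD in grey. Survival minus death runs from −0.10 in tumor 1 to 0.13 in tumor 3, around a mean of 0.0075.

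Other genes of the apoptosis machinery were read from 6 lists that hold 55 genes, of which 49 were tested. None passed the limma threshold, 7 had an unadjusted p under 0.05 (6.97% of all genes did), 1 passed by rank product (0.414% of all genes) and 2 passed with a dye term (1.19%). The log2 ratio was above 0 in all 3 tumors for 11 of them, against 14.1% of all genes, and below 0 in all 3 for 5, against 13.6%. Birc3, which encodes the inhibitor of apoptosis cIAP2 and is a known NF-κB target, had log2 ratios of 0.66, 0.51 and 0.16. Its mean was 0.44, with an adjusted p by limma of 0.331 and of 0.00218 with a dye term. Fas, the receptor of Fas ligand, had 0.33, 0.20 and 0.64, a mean of 0.39, an adjusted p by limma of 0.342 and of 0.0177 with a dye term, and a pfp of 0.0459. Without tumor 2, the adjusted p by limma was 0.00782 for Birc3 and 0.000678 for Fas, in a fit where RL and the dye cannot be told apart. Birc3 acts against cell death and Fas for it.

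In the list of other survival genes of the BCL2 family, 2 of 5 were tested. Bcl2l2, which encodes BCL-W, had a mean of −0.12, and Bcl2a1d, which belongs to a family of near-identical copies that its probe may not separate, had 0.63, 0.13 and 0.14. Of 8 other death genes of the family, 7 were tested, with means from −0.08 to 0.27. The highest was that of Pmaip1, which encodes NOXA, with 0.33, 0.22 and 0.25 and an adjusted p of 0.406 by limma. In the list of the apoptosome and the caspases, 10 of 10 genes were tested. Of these, 2 were above 0 in all 3 tumors and 1 was below, against 14.1% and 13.6% of all genes. Bcl2l2, Bcl2a1d and Pmaip1 were singled out after their values were seen.

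Of 8 other inhibitors of apoptosis, 7 were tested, with means from −0.09 to 0.44. Of 12 genes of death receptors and their complexes, 11 were tested, with means from −0.09 to 0.39. The 12 genes of the p53 list, among them Cdkn1a and Mdm2, had means from −0.17 to 0.16 and a median of −0.0092. In that list 2 genes were above 0 in all 3 tumors and 1 was below, against 14.1% and 13.6% of all genes.

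Markers of cell types were read beside these genes, because fewer cells of a type and less RNA per cell cannot be told apart in cultures measured in bulk. All 9 epithelial markers, among them Epcam, Krt8 and Cdh1, passed the filter on dim probes. Their summed level was 18.48, 18.10 and 18.86 on the log2 scale in the controls of tumors 1, 2 and 3 and 18.22, 18.21 and 18.44 with RL. Krt18, whose probe was the brightest of the list and weighed most in the sum, had log2 ratios of −0.73, 0.42 and −0.70. In tumors 1 and 2 the sum ran against most of the list, and in tumor 3 it ran with it: 7, 1 and 2 of the 9 markers were above 0 in tumors 1, 2 and 3, and the list medians were 0.14, −0.17 and −0.07. Leukocyte markers, 8 of 10 tested, had summed levels of 14.17, 14.17 and 13.71 in the controls and 13.73, 14.03 and 13.64 with RL, lower with RL in all 3 tumors. S100a8, a neutrophil gene and the brightest probe of this list in tumors 1 and 2, had −0.78, −0.34 and 0.02. Itgam, the brightest in tumor 3, had −0.05, 0.17 and −0.20. Its probe had a mean log2 intensity of 12.33, whereas other Itgam probes had 6.60 and 6.34 and the Ptprc probe 6.32. The summed level thus rested mostly on the probes of S100a8 and Itgam, and whether the Itgam probe read that gene alone was not tested. Of the 8 markers, 6, 6 and 5 were below 0 in tumors 1, 2 and 3. Below 0 in all 3 tumors were 2 of the 8, against 13.6% of all genes. Krt18, S100a8 and Itgam were singled out after their values were seen.

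Fibroblast markers, 6 of 6 tested, had summed levels of 13.13, 11.97 and 14.11 in the controls and 12.85, 12.08 and 14.05 with RL. Endothelial markers, 2 of 4 tested, had 11.03, 11.05 and 10.85 in the controls and 11.18, 11.00 and 11.01 with RL. Kdr, the brighter probe of that sum, had log2 ratios of 0.18, −0.07 and 0.21, and Pecam1 had the opposite sign in each tumor, with −0.18, 0.15 and −0.30. The sum rested mostly on this Kdr probe, with a mean log2 intensity of 10.9 against 7.3 for Pecam1. A second Kdr probe had a mean log2 intensity of 6.74 and gave 0.06, 0.02 and 0.23. Kdr and Pecam1 were singled out after their values were seen. Cd79a, Ms4a1, Cdh5 and Tek did not pass the filter on dim probes. No marker of the 4 lists passed the limma threshold, and 3 of the 25 tested had an unadjusted p under 0.05, against 6.97% of all genes. The part of these cell types in the ratios of Bid and Bax was not tested.

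Because NF-κB binds kB motifs, the promoters of the 10 genes were searched for such letters in the 17 windows that RefSeq starts on GRCm38.p6 give, each from 250 bases before a start to 50 after it. All 10 members and 7 of the 8 response genes had a window. In all, 6 forms of the motif were searched on both strands. GGGNNTTTCC was in 1.63% of all 32851 promoter windows, and it was in 1 window each of Bcl2l1, Mcl1 and Bbc3 and in windows of Nfkbia, Nfkb2 and Tnfaip3. GGGNNNTTCC was in 5.56% of all windows and found the same 3 members. GGGACTTTCC, GGGANNTTCC, GGGAATTCC and GGGNATTCC were in 0.155%, 1.47%, 0.225% and 0.776% of all windows and in 0 windows of the members. Of the 10 windows of the response genes, these 6 forms, in the order given, were in 5, 7, 2, 3, 1 and 2. Counted by gene, they were in 3, 4, 1, 2, 1 and 2 of the 7 response genes. Windows of a gene can overlap, and the 2 windows with GGGACTTTCC hold the same site of Nfkb2. These forms overlap with each other, and the form shown was chosen after the matches of all 6 had been seen.

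The stretches with GGGNNTTTCC, or its reverse complement, are shown for the 3 members and for Nfkbia, none of which passed the limma threshold. The stretches of Nfkb2 and Tnfaip3 lie across or past an annotated start and are not shown. In Nfkb2, a motif past an annotated start also began 225 bases before another start of that gene. Each stretch shown runs 5′ to 3′ in the direction of its gene, with the motif in capitals. They lie at chr2:152830916-152830945 (minus strand, Bcl2l1), chr3:95658683-95658712 (plus, Mcl1), chr7:16309437-16309466 (plus, Bbc3) and chr12:55492657-55492686 (minus, Nfkbia).
Bcl2l1: tacgcctctcGGAAAAACCCgggagtggtc
Mcl1: ccagccctccGGAAACGCCCgcccctttcc
Bbc3: ctggctgccgGGAAACCCCCcgcgccgagg
Nfkbia: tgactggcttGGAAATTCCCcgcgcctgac
The motif began 218, 28 and 136 bases before the start of its window's transcript in Bcl2l1, Mcl1 and Bbc3, and 29 bases before it in Nfkbia. The mean log2 ratio was −0.00078, −0.03 and 0.07 in these members, beside 0.78 in Nfkbia. A match describes letters in a window, and binding was not measured.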

How the data were processed

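The authors extracted the scanned spots with Agilent Feature Extraction, version 10.7.3.1 per the sample labels. The deposited scanner files hold median intensity values of spot and background for both dyes, uncorrected, and the software's processed intensity values. The authors' value table holds log2 ratios, without its centring stated. The methods give expression as a log2 ratio to control. Set against the scanner values, the table was Cy5 over Cy3, the order of the sample titles, and so control over RL in tumors 1 and 3. After turning the sign, Pearson's r across genes was 0.964, 0.953 and 0.960 in tumors 1, 2 and 3, with slopes of 1.15, 1.17 and 1.15. Column medians were 0.0024, 0.00015 and −0.0013.

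In limma 3.58.1 (R 4.3.3), median intensities were corrected by normexp (offset 50). Arrays were normalized within by intensity loess and a spatial loess (span 0.1), then between by Aquantile. Control and outlier spots were left out. The spatial loess used (degree 2, symmetric, outlier spots left out) was taken after 8 forms of it had been run and their counts of calls seen. Each of the 8 forms called 1 gene higher, 3 to 5 lower and 0 members.

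Accessions of 28026 of 55681 probes matched RefSeq names of GRCm38.p6, without versions. The array was designed on another build, so probe coordinates are not given. A gene was tested by its brightest probe, which had to be well above background in every control channel or every RL channel. Ratios of RL over control, paired within an array by the labels, were fitted with lmFit and eBayes (6.60 prior and 2 residual degrees of freedom), with Benjamini-Hochberg adjustment. P-values measure the spread between 3 tumors, and the number of arrays limits precision. Programs were run on simulated data with independent noise in each array and no dye effect, unlike these arrays. Alternatives were other normalizations, background corrections, filters and probe rules, the processed signals, the authors' table, a dye term, trend and robust eBayes, a rank product (1000 permutations), and each tumor left out.

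The members and lists were chosen with earlier results of these data known. Named genes are the members, the 8 response genes, and list genes that passed limma or had 1 sign in all 3 tumors with a mean of at least 0.3 in size. Others named with values were singled out after their values were seen, as the text says. Promoter sequences are from RefSeq, GRCm38.p6. The values of 1 list gene are not reported here.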

Additional observations from a re-analysis of the deposited data

How the results depend on the processing

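Of 230 member values over the alternatives, 199 kept their direction and side of the threshold, 29 changed sign and 2 (Bax and Bid without tumor 2) passed the threshold. Of the 230, 46 had the same log2 value by construction, so that only the side of the threshold was free to change: those without Aquantile, with both other filters and with trend and robust moderation, and 6 members of 1 probe with the mean over probes. Survival minus death lay between −0.05 and 0.06 over 22 alternatives, 3 of which left it the same by construction, against an SD of 0.11 between tumors. The causes of the shifts below were not tested.

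The count of genes higher and lower, 1 and 5, was 0 and 0 with median centering and with the processed signals, 6 and 11 with a normexp offset of 10, 0 and 3 without the filter on dim probes and with probes well above background in all 6 channels, 14 and 30 with trend and robust moderation, 38 and 52 by rank product, and 112 and 146 with a dye term. It was 2 higher without background correction and with the authors' log2 ratios, and 3 lower with the mean over probes. With tumors left out in turn, 1 to 533 genes were higher, 2 to 879 lower and 0 to 2 members called. Members above 0 in all 3 tumors numbered 0 without spatial loess, with median centering, without background correction and with the authors' ratios, and those below 0 numbered 2, 0, 1 and 2.

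Signs changed in 8 members, all but Bcl2l11 and Bid. Bcl2l1 was 0.012 without spatial loess, 0.0025 without background correction, 0.0049 with processed signals, 0.025 with the mean over probes, 0.016 with the authors' ratios and 0.049 with a dye term. With the mean over probes Mcl1 was 0.0083 and Cflar 0.031. With a dye term Bcl2 was 0.00037, Cflar 0.0071 and Xiap −0.090. Xiap was −0.0018 with a normexp offset of 10. With median centering Xiap was −0.12, Bax −0.0058, Bbc3 −0.079 and Tnfrsf11a −0.096. In that setting the members without a change of sign were Bcl2 at −0.19, Bcl2l1 −0.18, Mcl1 −0.20, Cflar −0.18, Bak1 −0.24, Bcl2l11 −0.14 and Bid −0.40. The median over all genes was −0.11 there. With tumors left out in turn, Bcl2 ran from −0.13 to 0.050, Bcl2l1 from −0.10 to 0.049, Mcl1 from −0.088 to 0.058, Cflar from −0.079 to 0.052, Xiap from −0.18 to 0.22, Bak1 from −0.090 to 0.017, Bax from 0.060 to 0.31, Bcl2l11 from −0.078 to −0.032, Bbc3 from 0.037 to 0.10 and Bid from −0.37 to −0.16.

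The 7 other forms of the spatial loess were chosen after seeing the data. Genes lower numbered 3 with both symmetric forms of degree 1 and with the symmetric form of degree 2 that had outlier spots in the fits, and Bcl2l1 was 0.00036, 0.00028, 0.0022, 0.0021, 0.0014 and 0.0013 in the forms where its sign changed. With a dye term these forms and the one used gave 108 to 181 genes higher and 139 to 222 lower.

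With 3 arrays, 1 of them in the other dye order, RL and dye are only partly separated, and the dye term leaves 1 residual degree of freedom. The bound of a member's 95% interval that lay farther from 0 ran from −0.19 for Bcl2l1 to −0.46 for Bid.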
